A study of Mus musculus with 16 samples.

Results

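Brain transcripts were compared between 4 arrays of naive mice labelled TNF knockout and 4 arrays of mice with the same label taken 24 h after a stroke. The groups were formed from the sample titles, and these 8 arrays are 8 of the 16 of the study. All mice were male and 8 weeks old, and stroke was made by permanent occlusion of the middle cerebral artery (pMCAO), which cuts the blood supply to part of 1 hemisphere without letting it return. RNA came from frozen whole brain, so infarcted and spared tissue were read together, and 1 Mouse Gene 1.0 ST array from Affymetrix was used per sample. The other 8 arrays hold C57BL/6 mice, 4 naive and 4 taken 24 h after the same occlusion, and are used here only where a change is set beside theirs. Because naive mice were not sham-operated, surgery and occlusion cannot be told apart. Array medians were 6.01 to 6.05, arrays of a group correlated at 0.9935 to 0.9961, and the number of arrays limits the precision. As a check of the tissue, the mean of 14 general neuron markers was 10.2 to 10.39 in all 8 arrays. The allele, its strain background and the separate animals behind the arrays are not stated in the labels. If arrays shared an animal, the p-values would measure technical spread.

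Tnf encodes the cytokine tumour necrosis factor and is the gene that the knockout label refers to. It read 6.14, 6.46, 6.47 and 6.58 in the 4 naive arrays and 6.75, 6.60, 6.99 and 6.88 in the 4 stroke arrays, on the log2 scale of all values below. The mean in C57BL/6 mice was 5.30 when naive and 5.57 after stroke, so the gene was not lower in any array labelled TNF knockout. Which part of Tnf the probe set reads, relative to the deleted part, was not tested, and a probe set outside the deletion checks nothing. The groups are therefore called by their label. The Tnf readings of the naive and stroke arrays did not overlap, but the change of 0.39 ± 0.14 (SE, 4 arrays a group) missed the threshold (limma, adjusted p = 0.365).

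Tumour necrosis factor is made early after ischaemia, largely by microglia, and acts through 2 receptors that switch on NF-kB, a transcription factor family shared with the receptors for interleukin-1 and for microbial patterns. Cells in and around an infarct also send chemokines that recruit leukocytes, interferons that act through Stat2 and Irf9, and cytokines of the interleukin-6 family that act through Stat3 and drive the reactive state of astrocytes. Which of these programmes were seen in brains with the knockout label is the question that the comparison addresses.

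Of 19938 genes tested, 107 were higher after stroke (0.537 percent) and 21 were lower (0.105 percent) at an adjusted p under 0.05. The test was limma's moderated test with Benjamini-Hochberg adjustment over all genes, and changes are stroke minus naive on the log2 scale ± SE. The increases reached 13.1-fold, 25 of them were at least 2-fold and 4 at least 8-fold, with a median of 0.74 over the 107 genes. No decrease reached 2-fold, and the median over the 21 genes was -0.49. The median change of all genes was 0.00. In 126 of the 128 genes the 4 stroke arrays lay entirely on one side of the 4 naive arrays, as they did in 5.87 percent of all genes (2.8 percent higher, 3.07 percent lower). The 2 exceptions were Mx2 and Shank1. In whole brain, fewer cells of a type and less RNA per cell cannot be told apart, nor can more cells and more RNA.

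The sample names carry a prefix of unstated meaning, KL76 for stroke array 1 and naive arrays 1 to 3, and KL82 for stroke arrays 2 to 4 and naive array 4. A fixed term for the prefix left 68 genes higher (0.341 percent) and 4 lower (0.0201 percent), among them 64 of the 107 and 3 of the 21. The counts moved with single arrays. Without naive array 1 they were 68 higher and 4 lower, without array 2 they were 68 and 2, without array 3 they were 89 and 7, and without array 4 they were 80 and 28. Leaving out stroke array 1, 2, 3 or 4 gave 80, 93, 65 and 66 higher and 12, 8, 6 and 3 lower. In each of these 8 fits 54 of the increases and 1 of the decreases, Adat2, passed. A gene named below passed with the prefix term and in all 8 of these fits unless its exceptions are given.

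**Figure D1:**
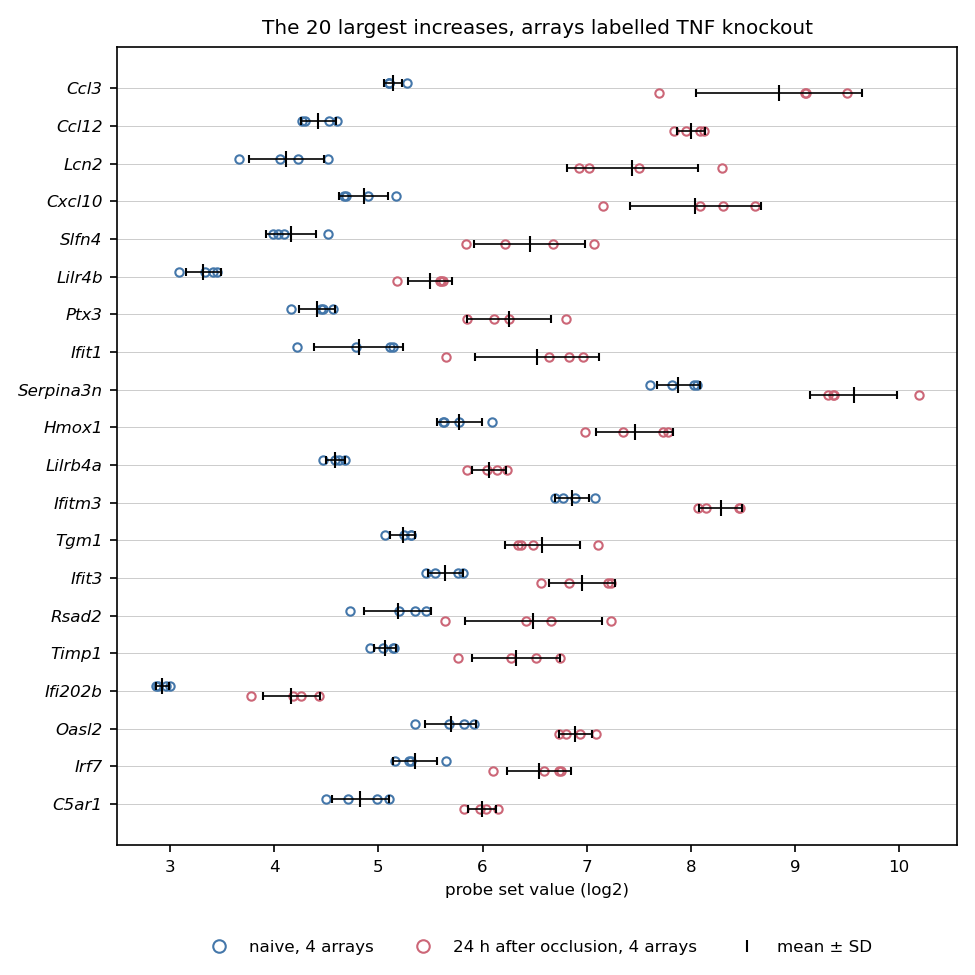
Log2 values of the 20 genes with the largest increases in the 4 naive (blue) and 4 stroke (red) arrays labelled TNF knockout, with bars for mean ± SD. The groups of every gene plotted are separate, and Ccl3, Ccl12, Lcn2 and Cxcl10 moved furthest, by 3.71, 3.58, 3.32 and 3.19.

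Chemokines, the secreted proteins that direct leukocytes, held 3 of the 4 largest increases. Of 34 ligands measured 7 rose and 0 fell (list median 0.10), whereas none of 23 chemokine receptors passed the limma threshold (median 0.05). The count of ligands was 6 to 8 without any 1 of the 8 arrays. Ccl3, a ligand of Ccr1 made by microglia and macrophages, read 5.10, 5.10, 5.10 and 5.27 in the naive arrays and 9.50, 7.69, 9.11 and 9.10 in the stroke arrays. Stroke array 2 was the lowest of its group, and its value still lay far above every naive array. The change was 3.71 ± 0.31 (adjusted p = 2.49e-06).

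Ccl12, a mouse ligand of the monocyte receptor Ccr2, read 4.60, 4.53, 4.29 and 4.27 and then 7.95, 7.84, 8.13 and 8.09. It had the tightest stroke group of the 4 largest increases and the smallest adjusted p of the comparison (3.58 ± 0.19, 1.41e-09). Cxcl10, an interferon-induced ligand of the T cell receptor Cxcr3, read 4.90, 4.67, 4.69 and 5.17 and then 8.62, 7.16, 8.31 and 8.09. As for Ccl3, stroke array 1 was the highest and array 2 the lowest, and the change was 3.19 ± 0.28 (adjusted p = 2.55e-06).

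The other ligands changed less. Ccl2, the main chemokine for monocytes, went from 4.52, 4.39, 4.50 and 4.14 to 5.88, 5.32, 5.42 and 5.38, a rise of 1.11 ± 0.15 with groups that did not overlap. Its neighbour in the same family, Ccl7, rose by 0.66 ± 0.10 and Ccl9 by 0.97 ± 0.14. Ccl5, a chemokine for T cells, read 5.79 in stroke array 2 against 5.78 in the highest naive array, and rose by 0.80 ± 0.16 (adjusted p = 0.0212). In the 8 fits without 1 compared array, Ccl5 passed in 2 (adjusted p up to 0.0891).

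Genes linked to type I interferon formed the most numerous set of increases. The ligands themselves did not pass: 0 of 15 interferon genes were past the limma threshold, with a median of 0.09 and Ifna12 at 0.29 ± 0.19. Among 12 sensors of foreign or displaced nucleic acid only Ddx58, the RNA sensor RIG-I, rose (0.64 ± 0.13, adjusted p = 0.0209), with Ifih1, the sensor MDA5, at 0.33 ± 0.11 (adjusted p = 0.329). The helicase gene Ddx60, which acts with RIG-I, rose by 0.51 ± 0.11 outside that list. Ddx58 and Ddx60 missed the threshold once the prefix was a fixed term (adjusted p between 0.0542 and 0.272). When 1 compared array at a time was left out, Ddx58 passed in 3 and Ddx60 in 2 of the 8 fits (adjusted p up to 0.17).

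Of 15 interferon receptors, kinases and transcription factors, 3 rose and all 3 are factors. Irf7, which amplifies the production of interferon-alpha, read 5.16, 5.65, 5.29 and 5.31 in the naive arrays and 6.75, 6.10, 6.59 and 6.73 in the stroke arrays. Each stroke array was above each naive array, and the change was 1.19 ± 0.13 (adjusted p = 2.97e-05). Irf9 and Stat2, which bind interferon-stimulated response elements together, rose by 0.47 ± 0.09 and 0.42 ± 0.08. Of these calls, Stat2 did not pass with the prefix term (adjusted p = 0.063). Among 8 fits that each dropped 1 compared array, Irf9 passed in 6 and Stat2 in 5 (adjusted p up to 0.071).

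Of 36 interferon effector genes 12 rose and 0 fell (against 0.537 percent of all genes), and 34 of the 36 changes were positive, with a median of 0.44. The mean over the 36 genes was 5.52 to 5.64 in the naive arrays and 5.85 to 6.24 in the stroke arrays, lowest in stroke array 2. With the prefix term 10 members rose, without any 1 of the 8 arrays 9 to 13 did, and the median was 0.46 within KL76 and 0.38 within KL82. The risen genes described in the next paragraphs are not all in this list.

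Ifit1, which binds viral RNA that lacks the host cap, read 4.78, 4.22, 5.11 and 5.14 and then 6.96, 5.65, 6.64 and 6.83. Both groups spread widely without overlap, and the change was 1.71 ± 0.24 (adjusted p = 0.000532). Its relative Ifit3 went from 5.46, 5.76, 5.54 and 5.81 to 7.23, 6.56, 6.83 and 7.20, a rise of 1.31 ± 0.15 (adjusted p = 5.97e-05). The near copy Ifit3b rose by 0.99 ± 0.18, and probe sets of such copies can read each other's transcripts, which was not tested here.

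Rsad2, the antiviral enzyme viperin, read 5.35, 5.20, 5.46 and 4.73 and then 7.23, 5.64, 6.42 and 6.66. Stroke array 2 lay just above naive array 3, the highest of the naive group (1.30 ± 0.24, adjusted p = 0.00853). The membrane proteins Ifitm3 and Ifitm1, which block viral entry, rose by 1.43 ± 0.16 and 0.99 ± 0.15, Ifitm3 from 6.70, 6.77, 6.89 and 7.08 to 8.15, 8.07, 8.46 and 8.47. Oasl2, of the oligoadenylate synthetase family, went from 5.82, 5.35, 5.68 and 5.92 to 6.80, 6.73, 6.94 and 7.09 with no overlap (1.20 ± 0.12, adjusted p = 1.02e-05).

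The feedback gene Usp18, which removes Isg15 from proteins and restrains the interferon receptor, rose by 0.84 ± 0.14. Trim30a and Trim21, ubiquitin ligases, rose by 1.02 ± 0.15 and 0.47 ± 0.10, and the chaperone gene Rtp4 rose by 0.97 ± 0.13. The dynamin-like antiviral genes Mx1 and Mx2 rose by 0.52 ± 0.10 and 0.78 ± 0.18, Mx1 from at most 3.35 in the naive arrays to 3.72, 3.73, 3.72 and 3.89. In Mx2 stroke array 2 (4.07) lay below naive array 3 (4.18). The calls of Ifit3b, Trim21, Mx1 and Mx2 were lost with the prefix as a fixed term (adjusted p between 0.0642 and 0.126). Across 8 fits that left out 1 compared array each, Mx1 passed in 6 and Trim21 and Mx2 in 2 (adjusted p up to 0.194).

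GTPases known mainly from interferon-gamma had 2 of 10 members higher and 0 lower (median 0.34). These were Gbp3 (0.75 ± 0.11, adjusted p = 0.00101) and Irgm1, which takes part in autophagy of microbes (0.84 ± 0.16), with Gbp7 at 0.63 ± 0.15 (adjusted p = 0.072). Slfn4, a Schlafen gene induced in myeloid cells by interferon, was the fifth largest increase and the 1 of 10 Schlafen genes past the threshold. It read 4.52, 3.99, 4.04 and 4.09 and then 6.68, 5.84, 7.07 and 6.22, a rise of 2.29 ± 0.27 (adjusted p = 8.79e-05). Ifi202b, of the DNA-binding p200 family, rose from 3.0, 2.88, 2.96 and 2.86 to 3.78, 4.26, 4.18 and 4.43 (1.24 ± 0.12, adjusted p = 5.76e-06), and stroke array 1 was the lowest of its group.

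H2-Q4 was the 1 of 15 class I and peptide loading genes that rose (0.66 ± 0.12), and 0 of 8 class II genes passed (median 0.19). Cd274, the checkpoint ligand PD-L1, rose by 0.47 ± 0.10, from 5.26 to 5.51 in the naive arrays to 5.55 to 6.04 in the stroke arrays. The interleukin-4 receptor gene Il4ra rose by 0.59 ± 0.12. With a prefix term the call was lost for Irgm1 and Cd274 (adjusted p between 0.0561 and 0.107). In the 8 fits without 1 compared array, Irgm1 passed in 5, H2-Q4 in 4, Il4ra in 3, and Cd274 in 2 (adjusted p up to 0.141).

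**Figure D2:**
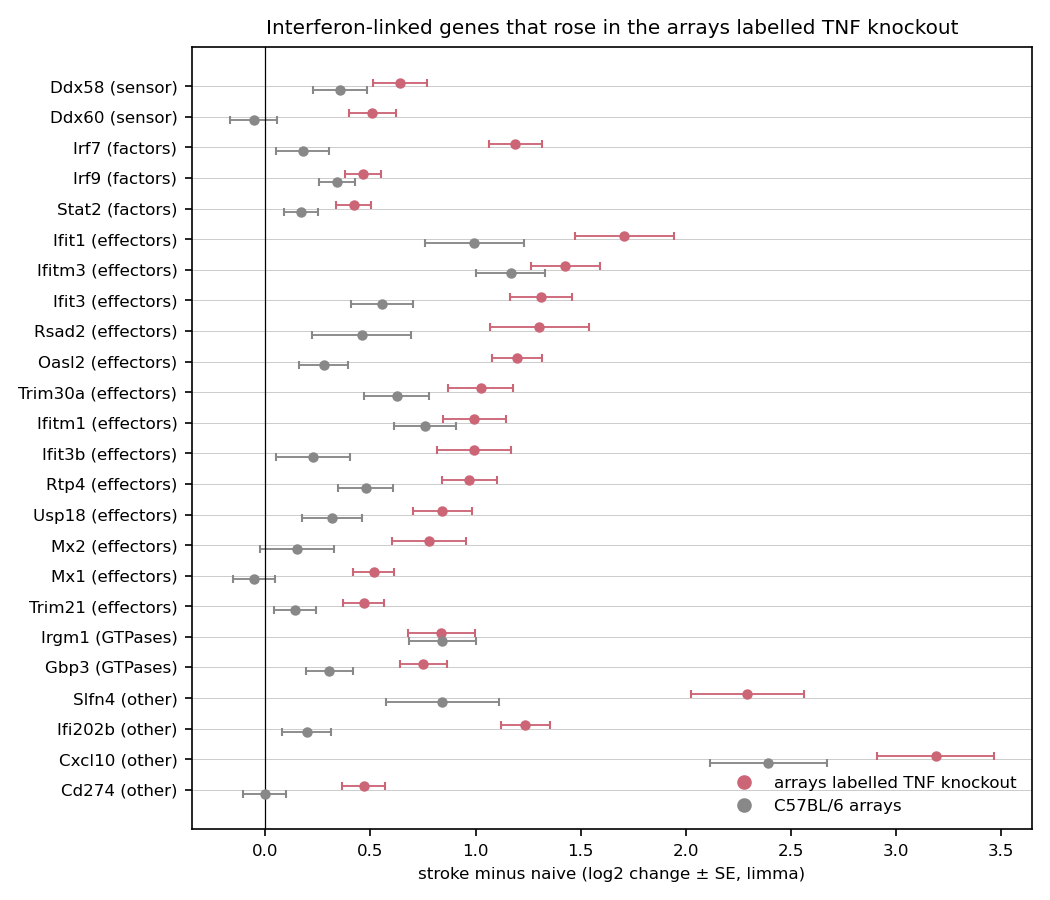
Stroke minus naive change (log2 ± SE, limma) of 24 interferon-linked genes past the threshold in the arrays labelled TNF knockout (red), beside the change in the C57BL/6 arrays (grey), by role. The genes were chosen because they rose in the arrays labelled TNF knockout, so all red points lie above 0 by choice. That choice also favours the red points over the grey. The red points run from 0.42 for Stat2 to 3.19 for Cxcl10, and no difference between the labels passed the threshold.

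Promoter sequences of the genes past the threshold were searched for short motifs. Promoters came from RefSeq on build GRCm38.p6, from 250 bases before to 50 after each start, and 106 of the 128 genes had one. The core of the interferon-stimulated response element was searched on both strands as GAAANNGAA. It occurred in 26 of 89 promoters of genes that rose (29.2 percent), in 2 of 17 of genes that fell, and in 9.76 percent of the 27025 genes in the table. Among the 15614 tested genes with a promoter the share was 9.2 percent. Only 8 of the 12 interferon effectors that rose had a promoter in the table, and 6 of these 8 held the core. Of the effectors that did not pass, 8 of 18 with a promoter held it. The promoters of Irf7, Oasl2 and Ifi202b held no core, and in Ddx58, Trim21 and Ifitm3 the matches lay after the start site. The 160 bases before the start site are printed for 6 genes that rose, 3 effectors with high changes, both GTPases and Cd274, because their cores show how copies stand alone or overlap. Capitals mark every match to the core, and runs of more than 9 capitals are overlapping matches.

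Ifit1, chr19:34640729-34640888, plus strand: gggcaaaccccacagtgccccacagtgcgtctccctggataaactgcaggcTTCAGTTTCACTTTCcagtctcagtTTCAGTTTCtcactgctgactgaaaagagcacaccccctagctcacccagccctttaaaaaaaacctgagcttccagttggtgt
Ifit3, chr19:34583369-34583528, plus strand: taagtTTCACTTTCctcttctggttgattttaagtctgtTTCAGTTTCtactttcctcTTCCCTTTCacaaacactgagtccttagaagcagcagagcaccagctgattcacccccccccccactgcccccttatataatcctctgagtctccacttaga
Rsad2, chr12:26456453-26456612, minus strand: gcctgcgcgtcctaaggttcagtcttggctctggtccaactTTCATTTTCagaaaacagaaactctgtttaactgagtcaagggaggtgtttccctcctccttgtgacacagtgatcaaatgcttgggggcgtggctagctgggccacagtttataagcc
Irgm1, chr11:48871421-48871580, minus strand: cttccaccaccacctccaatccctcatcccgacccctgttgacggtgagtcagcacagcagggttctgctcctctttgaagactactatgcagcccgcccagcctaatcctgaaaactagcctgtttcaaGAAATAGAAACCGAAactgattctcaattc
Gbp3, chr3:142559884-142560043, plus strand: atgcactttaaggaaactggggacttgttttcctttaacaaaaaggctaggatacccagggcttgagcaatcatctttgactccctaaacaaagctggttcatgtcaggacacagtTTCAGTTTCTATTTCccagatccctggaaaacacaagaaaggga
Cd274, chr19:29367278-29367437, plus strand: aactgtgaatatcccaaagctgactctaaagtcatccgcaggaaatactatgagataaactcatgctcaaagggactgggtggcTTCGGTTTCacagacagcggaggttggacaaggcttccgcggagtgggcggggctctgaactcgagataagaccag

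Ifit1 held 3 matches, at -109, -103 and -84 from the start site, the first 2 overlapping, and Ifit3 held 3 separate ones at -155, -121 and -102. Gbp3 and Irgm1 each held 2 overlapping matches within 50 bases of the start, on opposite strands, and Rsad2 and Cd274 held 1 each. Gbp3 had 2 promoters in the table, of which 1 is printed. The other motifs searched were the NF-kB core GGGANNTTC, the Stat site TTCNNNGAA and the antioxidant response core TGACNNNGC. They occurred in 8.99, 16.9 and 14.6 percent of the promoters of genes that rose and in 4.47, 9.55 and 14 percent of all. Among the 15614 tested genes with a promoter the shares were 4.33, 8.99 and 15.2 percent. A match is a run of letters and does not show that a factor bound there.

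Cytokines of the interleukin-6 family act through a shared receptor chain and Stat3. Of 7 such cytokine genes 2 rose, Il6 itself (0.85 ± 0.17) and Clcf1, a ligand of the ciliary neurotrophic factor receptor (0.43 ± 0.10). Il6 read 2.60, 2.28, 2.83 and 2.82 in the naive arrays and 3.71, 3.18, 3.84 and 3.19 in the stroke arrays, and the groups did not overlap. These values are low. The mean over 1027 olfactory receptor genes was 3.39 to 3.46 in the naive and 3.46 to 3.53 in the stroke arrays. Il11 (0.60 ± 0.14, adjusted p = 0.071) and Lif (0.46 ± 0.13, adjusted p = 0.153) missed the threshold.

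Of 17 genes for their receptors, Stat3 and its feedback, 5 rose and 0 fell. Osmr, the receptor chain for oncostatin M, read 4.72, 5.37, 5.08 and 5.15 and then 6.25, 6.12, 5.86 and 6.17, a rise of 1.02 ± 0.16 (adjusted p = 0.0017). Stat3 rose by 0.52 ± 0.10. Socs3, which Stat3 induces and which shuts the receptor off, went from 6.36, 6.20, 6.01 and 6.16 to 7.21, 6.69, 7.06 and 7.07 in its brighter probe set (0.82 ± 0.11, adjusted p = 0.000251), whereas the other probe set changed by -0.03. Cebpd, a transcription factor of the acute phase response, rose by 0.56 ± 0.10. Il6, Clcf1 and Stat3 missed the threshold once the prefix was a fixed term (adjusted p between 0.0758 and 0.17). When 1 compared array at a time was left out, Stat3 passed in 5, Il6 in 4, and Clcf1 in 2 of the 8 fits (adjusted p up to 0.167).

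Calls in the TNF and NF-kB pathways were few, in lists of 25 and 16 genes, where 0.537 percent of all genes rose. The stroke arrays lay entirely above the naive arrays in 7 of the 25 and 6 of the 16, against 2.8 percent of all genes. Of 25 TNF ligands, receptors and adaptors 1 rose, Tnfrsf1a, the main receptor of tumour necrosis factor, from 6.53, 6.49, 6.74 and 6.41 to 7.08, 7.18, 7.09 and 7.17 (0.59 ± 0.10, adjusted p = 0.00689). Of 16 NF-kB subunits, inhibitors and feedback genes 2 rose, the atypical inhibitor Bcl3 (0.77 ± 0.11) and the subunit Nfkb2 (0.39 ± 0.09), with the classical inhibitor Nfkbia at 0.45 ± 0.13 (adjusted p = 0.175). With the prefix term 3 of the 16 rose. Zfp36, which destabilises cytokine mRNAs including that of Tnf, rose from at most 5.71 to at least 6.27 (0.83 ± 0.12, adjusted p = 0.000663).

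Of 20 genes of the interleukin-1 family and inflammasome 1 rose, the adaptor Myd88 (0.55 ± 0.09, adjusted p = 0.00405). Il1b read 4.33, 4.49, 4.53 and 4.12 and then 6.13, 4.68, 4.90 and 4.75, where stroke array 1 alone stood far above the naive arrays, and the change of 0.75 ± 0.29 missed the threshold (adjusted p = 0.441). None of 16 Toll-like receptor genes passed the limma threshold (median 0.12), although 13 of the 16 changes were above 0. In 6 of the 16 the stroke arrays lay entirely above the naive arrays, against 2.8 percent of all genes. The prostaglandin genes Ptgs2, which encodes cyclooxygenase 2, and Ptges rose by 0.71 ± 0.14 and 0.44 ± 0.10, 2 of 17 in their list. Of these calls, Ptgs2 and Ptges did not pass with the prefix term (adjusted p between 0.134 and 0.142). Among 8 fits that each dropped 1 compared array, Ptgs2 passed in 4 and Nfkb2 and Ptges in 0 (adjusted p up to 0.175).

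Secreted proteins of the acute phase and genes of iron or haem handling had 5 of 22 members higher and 0 lower (median 0.10). Lcn2, which withholds iron from bacteria and is secreted by reactive astrocytes, read 3.66, 4.52, 4.05 and 4.23 and then 8.30, 6.93, 7.50 and 7.02. Stroke array 1 was the highest, and the rise of 3.32 ± 0.31 (adjusted p = 5.76e-06) was as large as those of the chemokines. Serpina3n, a protease inhibitor, went from 7.61, 7.82, 8.03 and 8.06 to 10.19, 9.32, 9.38 and 9.37 (1.69 ± 0.20), again highest in stroke array 1.

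Ptx3, a soluble pattern recognition protein, rose from 4.45, 4.16, 4.56 and 4.47 to 5.85, 6.25, 6.80 and 6.11 (1.84 ± 0.26, adjusted p = 0.000663). Hmox1, which degrades haem, rose from 5.62, 5.63, 6.09 and 5.77 to 6.98, 7.35, 7.73 and 7.78 (1.68 ± 0.23, adjusted p = 0.00039), here with stroke array 1 the lowest of its group. The stroke array that was highest therefore differed between these secreted or induced genes. Saa3, a serum amyloid made outside the liver, rose by 0.63 ± 0.14, while Steap4, an iron reductase, stood at 0.87 ± 0.20 (adjusted p = 0.0589).

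Outside that list, the protease inhibitor gene A2m rose by 0.90 ± 0.13 and Ch25h, which makes the antiviral sterol 25-hydroxycholesterol, by 1.12 ± 0.14. Of 20 metallothionein and Nrf2 target genes 2 rose, Hmox1 and the zinc-binding Mt2 (0.66 ± 0.14), from 10.26 to 10.83 in the naive arrays to 10.93 to 11.37 in the stroke arrays. Of 17 glucocorticoid-responsive genes 2 rose, Lcn2 and the kinase gene Map3k6 (0.58 ± 0.12). The calls of Saa3, Mt2 and Map3k6 were lost with the prefix as a fixed term (adjusted p between 0.103 and 0.198). Across 8 fits that left out 1 compared array each, Mt2 and Map3k6 passed in 2 and Saa3 in 0 (adjusted p up to 0.184).

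Markers of reactive astrocytes had the highest share of members past the threshold among the lists counted. Of 13 markers of any reactive state 8 rose and 0 fell, against 0.537 percent of all genes, and the list median was 0.83. The mean over the 13 genes was 5.88 to 6.08 in the naive arrays and 6.99 to 7.24 in the stroke arrays. With the prefix term 6 rose, and without any 1 of the 8 arrays 7 to 9 did.

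Gfap, the intermediate filament that defines astrocytes, read 8.01, 7.77, 8.23 and 8.09 and then 8.49, 9.19, 8.95 and 8.78 (0.83 ± 0.15, adjusted p = 0.00705), lowest of the stroke group in array 1. Vim, a second filament, had a smaller spread, 8.58, 8.51, 8.55 and 8.49 and then 9.27, 9.44, 9.26 and 9.14 (0.74 ± 0.09, adjusted p = 0.000103). Cd44, a receptor for hyaluronan, rose by 0.79 ± 0.13 and Timp1, an inhibitor of metalloproteinases, by 1.26 ± 0.23, the latter not past the threshold without stroke array 4 (adjusted p = 0.0529). The other members that rose were Lcn2, Serpina3n, Cxcl10 and Osmr. In 11 of the 13 the stroke arrays lay entirely above the naive arrays, against 2.8 percent of all genes.

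Astrocyte markers have also been divided into a set named A1, described after inflammatory stimulation, and a set named A2, described after ischaemia. Of 12 A2 markers 6 rose and 0 fell (median 0.50), and of 7 A1 markers 1 rose (median 0.29), against 0.537 percent of all genes. In 7 of the 12 and 4 of the 7 the stroke arrays lay entirely above the naive arrays, against 2.8 percent of all genes. The A2 count was 3 with the prefix term and 2 to 5 without single arrays, lowest without naive array 2 or stroke array 3. With the prefix term the A1 count was 1. The A2 members were Ptx3, Tgm1, a transglutaminase (1.34 ± 0.17), Ptgs2, Tm4sf1 (0.68 ± 0.15), Emp1 (0.57 ± 0.12) and Clcf1. Tgm1 read 5.25, 5.31, 5.31 and 5.06 and then 6.37, 7.11, 6.34 and 6.48, with stroke array 2 the highest. Srgn, the proteoglycan serglycin, was the A1 member (0.98 ± 0.19), and whether the sets differed was not tested. Markers of resting astrocytes had 0 of 14 higher and 1 lower, Fabp7, a fatty acid binding protein, from 7.80, 7.98, 7.94 and 8.12 to 7.13, 7.34, 7.55 and 7.31 (-0.63 ± 0.13). With a prefix term the call was lost for Gfap, Timp1 and Tm4sf1 (adjusted p between 0.0844 and 0.307). In the 8 fits without 1 compared array, Timp1 passed in 7, Srgn in 5, Emp1 in 4, and Tm4sf1 and Fabp7 in 2 (adjusted p up to 0.177).

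**Figure D3:**
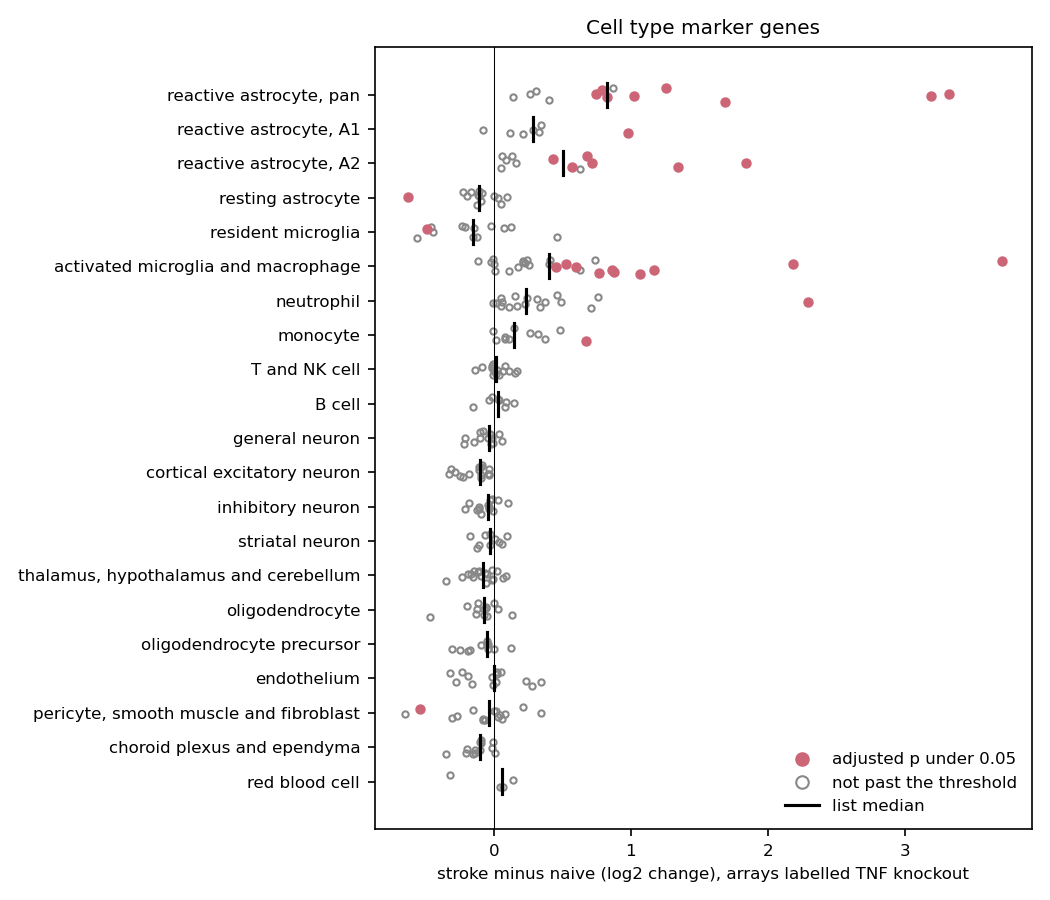
Stroke minus naive change (log2) of each measured marker gene in the arrays labelled TNF knockout, 1 row per cell type list, with filled points for genes at an adjusted p under 0.05 and a bar at the list median. Filled points gather in the reactive astrocyte and activated microglia rows, with 8 of 13 and 10 of 26, and lymphocyte, neuron and oligodendrocyte rows have none.

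Markers of activated microglia and macrophages, the phagocytes of injured brain, had 10 of 26 members higher and 0 lower (median 0.41). Their mean was 5.44 to 5.58 in the naive arrays and 6.01 to 6.19 in the stroke arrays. The count was 8 with the prefix term and 7 to 10 without single arrays. Besides Ccl3, the largest was Lilr4b, a receptor of myeloid cells, which read 3.33, 3.08, 3.41 and 3.45 and then 5.60, 5.18, 5.62 and 5.59 (2.18 ± 0.23, adjusted p = 2.44e-05). The related Lilrb4a, a near copy, rose by 1.48 ± 0.18, which makes 2 of 13 Lilr, Pir and Cd300 genes. C5ar1, the receptor for the complement fragment C5a, rose from 4.71, 4.50, 5.10 and 4.99 to 6.15, 5.82, 5.98 and 6.03 (1.17 ± 0.17).

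The receptor gene Gpr84, which senses fatty acids in microglia, rose by 1.06 ± 0.17, and Msr1, a scavenger receptor, from at most 3.53 to at least 4.06 (0.86 ± 0.14). Cd68, a lysosomal protein of phagocytes, read 6.91, 6.80, 6.95 and 6.94 and then 7.55, 7.45, 7.59 and 7.40, a small change with a small error (0.60 ± 0.08, adjusted p = 0.000372). The lysosomal protease gene Ctsc and the mitochondrial Tspo, the target of a radioligand for gliosis, rose by 0.88 ± 0.16 and 0.53 ± 0.10. Cd14 stood at 0.63 ± 0.19 (adjusted p = 0.237).

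Fc receptors bind antibody, and 4 of 13 Fc receptor genes rose: Fcgr4 (0.77 ± 0.15), Fcgr1 (0.60 ± 0.10), the inhibitory Fcgr2b (0.46 ± 0.10) and the shared signalling chain Fcer1g (0.46 ± 0.09). Of 21 complement genes 3 rose, C5ar1, the C3a receptor gene C3ar1 (0.73 ± 0.16) and C4b (0.46 ± 0.10). Ms4a6c and Ms4a4c, membrane proteins of the myeloid Ms4a cluster, rose by 0.97 ± 0.16 and 0.68 ± 0.14. Ctsc, Fcgr4, Fcer1g, C3ar1, C4b and Ms4a4c missed the threshold once the prefix was a fixed term (adjusted p between 0.0629 and 0.169). When 1 compared array at a time was left out, Ctsc passed in 6, Fcgr4 in 5, C3ar1 in 3, Fcgr2b, Fcer1g and Ms4a4c in 2, and C4b in 0 of the 8 fits (adjusted p up to 0.154).

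Of 13 markers of resident microglia none rose and 1 fell (median -0.15), and 3 of the 13 changes were above 0. Gpr34, a lysophosphatidylserine receptor, read 4.55, 4.59, 4.63 and 4.49 in the naive arrays and 4.01, 4.08, 4.20 and 4.01 in the stroke arrays (-0.49 ± 0.11, adjusted p = 0.0456). Selplg (-0.56 ± 0.13, adjusted p = 0.0501), Siglech (-0.46 ± 0.11, adjusted p = 0.0742) and the purine receptor gene P2ry12 (-0.44 ± 0.13, adjusted p = 0.229) stood on the same side of 0 and missed the threshold. Fcrls, an Fc receptor-like gene of microglia, had the highest change of the list (0.46 ± 0.17, adjusted p = 0.369), with groups that overlapped. The list median was -0.44 within KL76 and -0.03 within KL82. Of these calls, Gpr34 did not pass with the prefix term (adjusted p = 0.171). Among 8 fits that each dropped 1 compared array, Gpr34 passed in 0 (adjusted p up to 0.158).

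Among markers of blood leukocytes, neutrophil and monocyte genes gave 1 call each, where 0.537 percent of all genes rose. Of 18 neutrophil markers 1 rose, Slfn4, which monocytes and macrophages also express. In all, 17 of the 18 changes were above 0, and in 5 markers the stroke arrays lay entirely above the naive arrays, as in 2.8 percent of all genes. Cxcr2, a chemokine receptor of neutrophils, was among these 5 (0.71 ± 0.22, adjusted p = 0.249). Of the fits run it passed only in the one without C57BL/6 stroke array 3. The threshold was also missed by S100a8 (0.34 ± 0.15) and S100a9 (0.15 ± 0.10), the most abundant neutrophil transcripts. The mean over the 18 genes was 4.03 to 4.12 in the naive arrays and 4.33 to 4.65 in the stroke arrays. Of 11 monocyte markers 1 rose, Ms4a4c, and 10 of the 11 changes were above 0. Of 15 T and NK cell and 8 B cell markers 0 passed the limma threshold (medians 0.02 and 0.03). Whether leukocytes in vessels or tissue take part in the myeloid increases was not tested.

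Matrix genes, proteases and genes of fibrinolysis had 5 of 35 members higher and 0 lower (median 0.11). Without single arrays 2 to 4 rose, fewest without stroke array 4. Adamts1, a protease of proteoglycans, read 6.77, 6.70, 6.65 and 6.60 and then 7.68, 7.39, 7.46 and 7.46 (0.82 ± 0.12, adjusted p = 0.00101). The other members were Timp1, Cd44, the stromelysin gene Mmp3 (0.75 ± 0.16) and Plaur, the urokinase receptor (0.54 ± 0.12). Sele, which encodes the selectin that inflamed endothelium shows to leukocytes, was the 1 of 15 adhesion genes that rose (0.58 ± 0.12), highest in stroke array 1 at 6.14 against 5.71 to 5.74 in the others. Icam1 stood at 0.43 ± 0.11 (adjusted p = 0.12). The call of Mmp3 was lost with the prefix as a fixed term (adjusted p = 0.104). Across 8 fits that left out 1 compared array each, Mmp3 and Sele passed in 2 and Plaur in 0 (adjusted p up to 0.152).

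Among 30 immediate early and activity-dependent genes 1 rose and 1 fell. Atf3, a transcription factor of stressed and injured cells, went from 5.53, 5.37, 5.31 and 4.88 to 6.34, 5.97, 6.02 and 6.31 (0.89 ± 0.14, adjusted p = 0.0017). Homer1, a scaffold of the postsynaptic density whose short form follows neuronal activity, fell from 9.67, 9.66, 9.66 and 9.24 to 8.99, 9.13, 8.91 and 9.02 (-0.55 ± 0.10, adjusted p = 0.0134). Naive array 4 was the lowest of its group, and the change was -0.67 within KL76 and -0.22 within KL82. Gadd45g, a stress-induced gene, was the 1 of 19 cell death and p53 target genes that rose (0.69 ± 0.15), and the replication gene Mcm6 the 1 of 25 cell cycle genes (0.47 ± 0.11). With a prefix term the call was lost for Homer1, Gadd45g and Mcm6 (adjusted p between 0.13 and 0.237). In the 8 fits without 1 compared array, Homer1 passed in 4 and Gadd45g and Mcm6 in 2 (adjusted p up to 0.209).

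The largest decrease was that of Adat2, a subunit of the deaminase that edits transfer RNA. It read 7.24, 7.57, 7.35 and 6.76 in the naive arrays and 6.54, 6.17, 6.40 and 6.35 in the stroke arrays, a fall of 0.86 ± 0.13 on the log2 scale (adjusted p = 0.00101). The change was -0.85 within KL76 and -0.45 within KL82. It passed with the prefix term (adjusted p = 0.00873), as did Fabp7 and Aif1l.

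**Figure D4:**
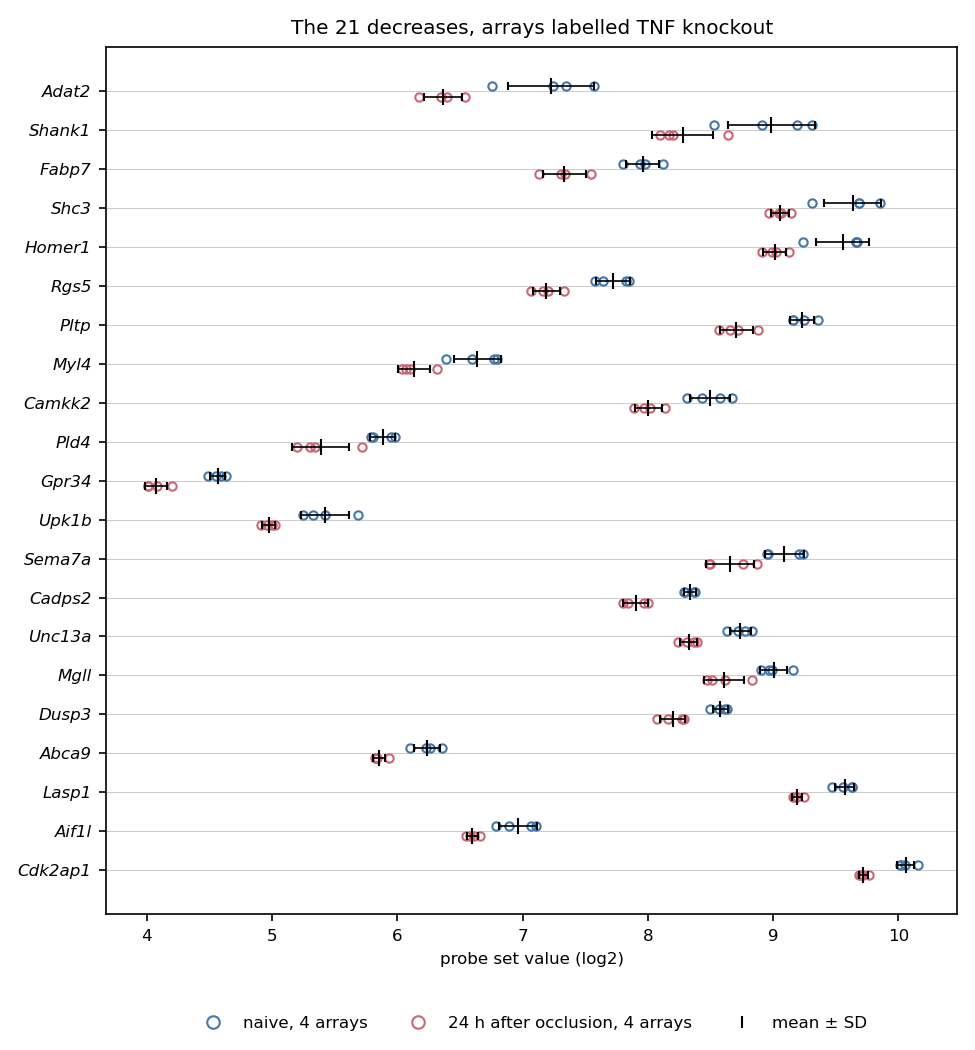
Log2 values of the 21 genes that were lower after stroke, in the 4 naive (blue) and 4 stroke (red) arrays labelled TNF knockout, with bars for mean ± SD. The groups are separate for 20 of the 21 genes, and Shank1 is the exception.

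Of 20 postsynaptic receptors and scaffolds 3 fell and 0 rose (median -0.14), against 0.105 percent of all genes. With the prefix term, and without naive array 1, naive array 2 or stroke array 3, no member passed limma's threshold. Shank1, a scaffold of excitatory synapses, read 9.31, 9.19, 8.91 and 8.53 and then 8.64, 8.17, 8.10 and 8.20 (-0.71 ± 0.14). Naive array 4, at 8.53, lay below stroke array 1, at 8.64. Camkk2, a kinase that activates calcium-dependent kinases and AMPK, fell from 8.58, 8.67, 8.43 and 8.31 to 8.02, 8.14, 7.89 and 7.97 (-0.49 ± 0.09, adjusted p = 0.0134), and Homer1 was the remaining member.

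Of 19 genes of vesicle release 1 fell, Unc13a, which primes vesicles (8.83, 8.72, 8.78 and 8.63 and then 8.39, 8.31, 8.24 and 8.37; -0.41 ± 0.09), with -0.29 to -0.37 in its 2 other probe sets. Cadps2, which primes dense-core vesicles, fell by 0.43 ± 0.08, Sema7a, a membrane semaphorin of neurons, by 0.43 ± 0.10, and Shc3, a neuronal adaptor of growth factor receptors, by 0.58 ± 0.11. None of the 15 voltage-gated channel, 20 neuropeptide, 14 general neuron, 16 cortical excitatory neuron, 14 inhibitory neuron or 10 striatal neuron genes passed the limma threshold. Their medians were -0.10, -0.07, -0.03, -0.10, -0.04 and -0.03, and none of the 16 cortical markers was above 0. Of all genes 0.105 percent fell at that threshold. In the same order of lists, the stroke arrays lay entirely below the naive arrays in 2, 2, 3, 2, 0 and 1 genes. Over all genes this held for 3.07 percent. No gene of these lists had stroke arrays entirely above the naive arrays. Shank1, Camkk2, Unc13a, Cadps2, Sema7a and Shc3 missed the threshold once the prefix was a fixed term (adjusted p between 0.0642 and 0.289). When 1 compared array at a time was left out, Shc3 passed in 5, Camkk2 and Cadps2 in 4, Shank1 and Sema7a in 3, and Unc13a in 2 of the 8 fits (adjusted p up to 0.188).

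Of 22 lipoprotein and lipid transport genes 2 fell and 8 changes were above 0 (median -0.05). Those that fell were Fabp7, also a resting astrocyte marker, and Pltp, which moves phospholipids between lipoproteins and went from 9.25, 9.16, 9.36 and 9.16 to 8.57, 8.72, 8.88 and 8.66 (-0.53 ± 0.12). Outside that list Mgll, which breaks down the endocannabinoid 2-arachidonoylglycerol, fell by 0.40 ± 0.09, and the transporter gene Abca9 by 0.38 ± 0.08. Pld4, an endolysosomal nuclease of microglia, fell from 5.79 to 5.98 in the naive arrays to 5.20 to 5.72 in the stroke arrays. Rgs5, a marker of pericytes, fell by 0.54 ± 0.12, the 1 of 16 mural cell and fibroblast markers, with Acta2 at -0.65 ± 0.22 (adjusted p = 0.306).

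The remaining decreases were the myosin light chain gene Myl4 (-0.51 ± 0.11), the uroplakin gene Upk1b (-0.45 ± 0.10), the phosphatase gene Dusp3 (-0.38 ± 0.08) and the actin-binding gene Lasp1 (-0.38 ± 0.08). They also included Aif1l (-0.36 ± 0.08), a relative of the microglial gene Aif1, and Cdk2ap1 (-0.34 ± 0.08), whose other probe set changed by -0.32. Of these calls, Pltp, Mgll, Abca9, Pld4, Rgs5, Myl4, Upk1b, Dusp3, Lasp1 and Cdk2ap1 did not pass with the prefix term (adjusted p between 0.0519 and 0.272). Among 8 fits that each dropped 1 compared array, Mgll, Pld4, Myl4 and Upk1b passed in 2, Abca9, Lasp1 and Aif1l in 1, and Pltp, Rgs5, Dusp3 and Cdk2ap1 in 0 (adjusted p up to 0.178).

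The increases not yet described were named after their values were seen, except Slc15a3, Olfr1440 and Vmn1r200, as were Ccl5, Cd274, Ddx60, Il4ra, Mx2, Trim21 and Tspo above. Among genes of leukocytes, Cd53 (a tetraspanin) rose by 0.75 ± 0.15, Lyz2 (lysozyme of myeloid cells) by 0.77 ± 0.17, the transcription factor gene Runx1 by 0.48 ± 0.09 and the lysosomal transporter gene Slc15a3 by 0.71 ± 0.15. Among genes of matrix and growth factor binding, Tgfbi rose by 0.60 ± 0.12, Igfbp3 by 0.41 ± 0.08 and Pros1, which encodes protein S, by 0.54 ± 0.11. The retinoid genes Aldh1a2, which makes retinoic acid, and Stra6, which takes up retinol, rose by 0.73 ± 0.14 and 0.69 ± 0.13, and Cyp1b1, a cytochrome that also acts on retinoids, by 0.54 ± 0.12. No list of retinoid genes was counted.

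Tubb6, a beta-tubulin, went from 6.00, 5.90, 5.97 and 6.12 to 6.67, 6.79, 6.83 and 6.79, with an adjusted p of 2.97e-05 at a change of only 0.77 ± 0.08. Emp3, Smim3 and Tspan4, membrane proteins, rose by 0.75 ± 0.13, 0.58 ± 0.10 and 0.32 ± 0.07, the spermine oxidase gene Smox by 0.43 ± 0.10, and Wfs1, of the endoplasmic reticulum, by 0.46 ± 0.08. The amylase gene Amy1 rose by 0.50 ± 0.10 and the kallikrein gene Klk9 by 0.48 ± 0.10. The receptor genes Mrgprb13, Olfr1440 and Vmn1r200 and the gene model Gm16294 rose by 0.37 to 0.58. Olfr1440 is 1 of 1027 olfactory and Vmn1r200 1 of 167 vomeronasal receptor genes, shares that lie below and near the 0.537 percent of all genes. The calls of Cd53, Lyz2, Runx1, Tgfbi, Pros1, Aldh1a2, Cyp1b1, Smim3, Tspan4, Amy1, Klk9, Olfr1440, Vmn1r200 and Gm16294 were lost with the prefix as a fixed term (adjusted p between 0.0519 and 0.24). Across 8 fits that left out 1 compared array each, Runx1 and Stra6 passed in 6, Cd53 and Aldh1a2 in 5, Amy1 in 4, Tgfbi and Klk9 in 3, Slc15a3, Pros1 and Cyp1b1 in 2, Lyz2, Smox, Olfr1440, Vmn1r200 and Gm16294 in 1, and Tspan4 in 0 (adjusted p up to 0.189).

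Several programmes linked with ischaemia gave no call by limma, at a share of 0.642 percent called over all genes. They were the 23 hypoxia and glycolysis genes (median 0.03; Adm 0.47 ± 0.12, adjusted p = 0.0875), the 17 heat shock chaperones (median -0.03; Hspa1a 0.38 ± 0.11, adjusted p = 0.211) and the 20 genes of the unfolded protein and integrated stress response (median -0.03). Growth factors (22 genes, median -0.08; Vegfa -0.24 ± 0.11), circadian clock genes (15, median 0.04), cholesterol synthesis (17, median 0.03) and the clearance of water, potassium and glutamate (14, median -0.12; Slc1a2 -0.20 ± 0.10) belong here too. So do the markers of oligodendrocytes (13, median -0.07), their precursors (11, median -0.05), endothelium (14, median 0.01), choroid plexus and ependyma (13, median -0.10) and red blood cells (4, median 0.06). Larger families gave the same count of 0: 300 microRNA genes, 67 ribosomal protein genes, 89 nuclear genes of the respiratory chain, 92 potassium channel genes and 96 keratin genes. A count of 0 calls does not show that a list was unchanged. In 10 of the 92 potassium channel genes the stroke arrays lay entirely below the naive arrays, and 26 of the 92 changes were above 0. In 3 of the 14 clearance genes and 3 of the 13 oligodendrocyte markers they also lay entirely below, against 3.07 percent of all genes. No gene of these lists had stroke arrays entirely above the naive arrays.

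The size of the response in single arrays was described with genes chosen in other arrays. These were the 267 genes that rose and the 67 that fell after stroke in the C57BL/6 arrays, none of which are among the 8 described. Over the 267 genes the mean relative to the naive mean was -0.08, -0.02, 0.08 and 0.02 in naive arrays 1 to 4, and 0.33, 0.28, 0.41 and 0.40 in stroke arrays 1 to 4. Stroke array 2 was the lowest and all 4 stroke arrays lay above all naive arrays. Over the 67 genes the naive arrays lay between -0.04 and 0.05 and the stroke arrays between -0.22 and -0.13. Among the 107 genes that rose with the knockout label, array 2 was the lowest of the 4 stroke arrays in 57 and array 1 the highest in 37.

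**Figure D5:**
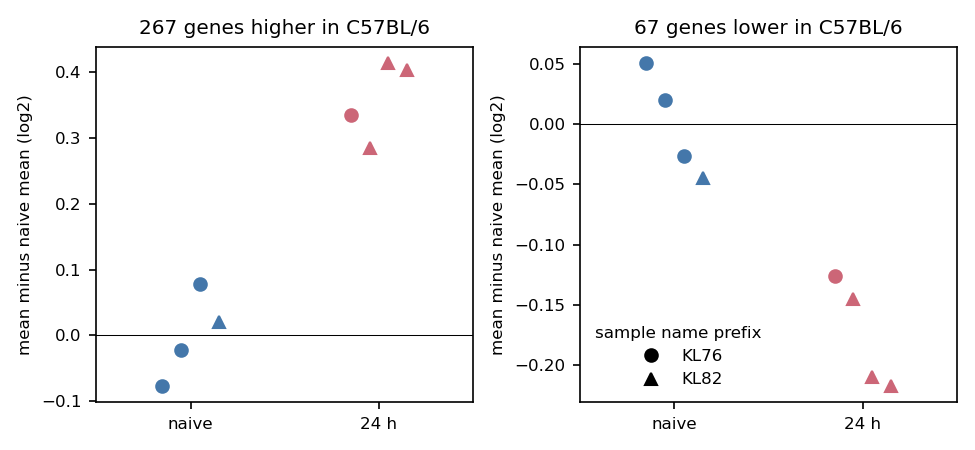
Mean over the 267 genes higher (left) and the 67 genes lower (right) after stroke in C57BL/6 arrays, for each array labelled TNF knockout, relative to the mean of its 4 naive arrays (log2), in the order of the replicate numbers, with symbols for the sample name prefix. On the left the stroke arrays lie between 0.28 and 0.41 and the naive arrays between -0.08 and 0.08.

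Set beside C57BL/6 mice, 58 of the 107 increases (54.2 percent) also passed upwards there, which is 21.7 percent of the 267, where 1.34 percent of all genes rose. Of the 21 decreases 7 (33.3 percent) also passed downwards there. The changes share no arrays, but they share 1 estimate of the spread. The difference between the changes passed the threshold for 0 genes by limma, with 1480 at an unadjusted p under 0.05, and for 1 to 4 genes in 7 of the other settings tried. The median SE of this difference was 0.141, against 0.0994 for the change itself.

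The smallest adjusted p of the difference was that of Ifi202b, which rose by 1.24 with the knockout label and by 0.20 in C57BL/6 (difference 1.04 ± 0.16, adjusted p = 0.0806). Next came Irf7 (1.19 and 0.18; difference 1.01 ± 0.18), Oasl2 (1.20 and 0.28; difference 0.92 ± 0.17) and Adat2 (-0.86 and 0.15; difference -1.01 ± 0.18), each with adjusted p = 0.114. For Slfn4 the changes were 2.29 and 0.84 (difference 1.45 ± 0.38, adjusted p = 0.434), and for Ifit3 they were 1.31 and 0.56 (difference 0.76 ± 0.21, adjusted p = 0.463). In the interferon effector list 12 of 36 rose with the knockout label and 5 in C57BL/6, with medians of 0.44 and 0.19.

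The median change of the 107 genes was 0.74 with the label and 0.573 in C57BL/6, whereas over the 267 genes that rose in C57BL/6 it was 0.207 with the label and 0.475 in C57BL/6. Each list favours the label it was chosen in. In 26 of the 107 genes the change was larger in C57BL/6. Cd68 rose by 0.60 and 1.08 (difference -0.49 ± 0.11, adjusted p = 0.407), Gpr84 by 1.06 and 1.78 (difference -0.71 ± 0.25, adjusted p = 0.561), and C3ar1 by 0.73 and 1.33 (difference -0.60 ± 0.22, adjusted p = 0.583). Of the 4 largest increases with the label, Ccl3 was at 3.71 and 2.94 (difference 0.77 ± 0.44, adjusted p = 0.707), Ccl12 at 3.58 and 3.33 (difference 0.26 ± 0.27, adjusted p = 0.837), Lcn2 at 3.32 and 3.0, and Cxcl10 at 3.19 and 2.39 (difference 0.80 ± 0.39, adjusted p = 0.677). At a median SE of 0.141 a missed threshold does not show that the labels responded alike. All C57BL/6 samples carry another prefix, KL42, so that prefix and genotype label cannot be told apart.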

How the data were processed

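The deposited values are log2 summaries per probe set with 2 decimals. The tools listed in the submitters' processing notes are RMA, GCRMA, GCOS and Partek, with neither versions nor roles. Per the labels' protocols, Trizol was used for the RNA and biotin as the label. The table held 28944 probe sets for 16 arrays, of which 21789 had 1 gene symbol in GEO's platform annotation, 1621 several and 5534 none. Probe sets with 1 symbol were tested, and for 999 genes with several, the brightest by its mean in the 16 arrays was kept, which gave 19938 genes. No filter on low values was applied, and no 2 arrays were identical.

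All 16 arrays entered 1 limma fit of 4 group means (version 3.58.1, under R 4.3.3; lmFit, then eBayes, with 12 residual df and a prior of 7.525 df). Tests were two-sided, with Benjamini-Hochberg adjustment over all genes and a threshold of 0.05. The contrasts were stroke minus naive in the arrays labelled TNF knockout, the same in C57BL/6, and their difference. Whether the replicate numbers pair the arrays is not settled by the closing values, and the main fit used no block.

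The members and lists (38 of genes, 21 of cell type markers, 17 of symbol families, of which 904 of 1035 spelled names were measured) were chosen with earlier results of these data known. Lists are described by counts and medians, without a set test. The naming rule takes Tnf, the 40 largest increases and 30 largest decreases with groups that do not overlap, up to 6 members of each list with the smallest p, and the 10 smallest p of the difference. Genes outside it are named as such.

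Other settings were quantile normalization, median centring, dropping the dimmest genes (33.33 percent by mean), averaging a gene's probe sets, testing each probe set by itself, array weights, a trended robust variance, the 8 compared arrays alone, the replicate number as a block, the prefix as a fixed term or random block, stricter thresholds, and leaving out each array. Changes within a prefix were added after seeing the data. The fit was tested on simulated data. Tables, figures and motif counts were made in Python 3.11.15 (numpy 2.4.6, pandas 2.3.3, matplotlib 3.10.9).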

Additional observations from a re-analysis of the deposited data

Results flagged for a closer look

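For the 151 genes whose change is named, each group of 4 arrays was searched for an array whose gap to the nearest other, divided by the range of the group, was above Dixon's critical value. This held in 18 of 302 groups, where chance gives about 1 in 20.

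In stroke array 1 the selectin gene Sele read 6.14 (others 5.71 to 5.74), Serpina3n 10.19 (others 9.32 to 9.38), Il1b 6.13 (others 4.68 to 4.90) and Nfkb2 6.29 (others 6.05 to 6.09), all above the rest of their group. In the same array Msr1 read 4.06 (others 4.29 to 4.32) and Il11 read 5.21 (others 5.66 to 5.75), below the rest.

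Stroke array 2 stood below its group in C3ar1 at 6.45 (others 6.90 to 6.95), H2-Q4 at 5.78 (others 6.29 to 6.35), Lilr4b at 5.18 (others 5.59 to 5.62) and Trim30a at 5.99 (others 6.64 to 6.76). Stroke array 3 read 5.88 for Cyp1b1 (others 6.22 to 6.28), and stroke array 4 read 3.89 for Mx1 (others 3.72 to 3.73).

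Among the naive arrays, array 4 read 9.24 for Homer1 (others 9.66 to 9.67), 5.27 for Ccl3 (others all 5.10), 6.62 for Fcer1g (others 6.55 to 6.56) and 7.40 for Ptgs2 (others 7.06 to 7.09). Naive array 3 read 5.67 for Bcl3 (others 5.37 to 5.41), and naive array 1 read 5.25 for Il11 (others 4.87 to 4.93). Naive array 4 is the only naive array with the prefix KL82, and a fixed term for the prefix, fitted for every gene, passed the limma threshold for 3 genes (Alox8, Mir32 and Tfrc), none of them named here.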

How the results depend on the processing

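Against 107 genes higher and 21 lower, and 0 genes whose change differed between the labels by limma (1480 at an unadjusted p under 0.05), the prefix as a fixed term gave 68 higher and 4 lower. A threshold of 0.01 gave 53 higher and 1 lower, and a change of at least 1.5-fold left 3 lower. Array weights gave 58 lower and 1 difference, testing every probe set gave 45 lower, and trended and robust variances gave 4 differences. Leaving out 1 of the 16 arrays at a time gave 65 to 119 higher, 2 to 28 lower and 0 to 3 differences. Quantile normalization gave 90 higher and 17 lower, median centring 92 and 26, and the 8 compared arrays alone 118 and 22. Of the 128 genes called, 24 missed the threshold after quantile normalization, 15 after median centring, 22 with the 8 compared arrays alone and 14 with the replicate block, among them Clcf1, Fcgr2b, Mcm6, Mx2, Nfkb2 and Plaur each time. All of those lost had also missed with the prefix term or without 1 compared array. With 1 probe set a gene, no named gene past the threshold changed sign, although the other probe set of Socs3 stood at -0.03, whereas Ifih1 (-0.02 within KL82) and Vegfa (0.05 within KL76), which had not passed, did. The number of arrays limits what could be called, and signal over background was not analysed here.

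Deviations from the group means correlated between naive and stroke arrays of the same replicate number at 0.34, 0.036, 0.14 and 0.219, all above 0. Those of different numbers correlated at -0.324 to 0.237. Naive array 2 correlated best with stroke array 1 (0.137) and naive array 4 with stroke array 3 (0.237). The arrays numbered 1 share a prefix, as do those numbered 4. These values do not settle whether the numbers pair the arrays. The replicate block gave 115 higher, 25 lower and 1 difference.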
